A study of Rattus norvegicus with 17 samples.

Results

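The combined effect of spinal cord injury (SCI) and brainstem stimulation was measured by setting the 3 rats that received both (group C) against the 4 rats that received neither (group A). These 7 of the 17 sequenced rats were chosen by the group letter in their titles, and the comparison covers the 15460 genes with enough counts to be tested, of 32494 in the count table. Group A, rats 70, 82, 83 and 84, had a sham injury and sham stimulation. Group C, rats 89, 90 and 93, had a contusion of the thoracic cord and, 3 days later, 2 h of stimulation of the nucleus raphe magnus (NRM) under anesthesia. The single parts of the treatment are in group B (rats 91, 94 and 95, SCI with sham stimulation) and group E (rats 69 and 85 to 88, sham injury with stimulation). The treatment labels of group E call those rats unstimulated, against their titles and the series' design text, and they are taken here as stimulated. Group D (rats 75 and 76) had SCI, stimulation and pimozide at 1 mg/kg. It is part of the fit to all 17 rats and serves as a further set of injured rats, and its values are given beside some genes. All were young-adult female Sprague-Dawley rats, and all had an electrode placed in the brainstem, so group A is an operated control and not a naive one. Each library combined blocks of cervical, thoracic and lumbar cord with their pia-arachnoid, so a level averages over the lesion and distant cord.

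The NRM lies on the midline of the lower brainstem and sends serotonergic fibers to all levels of the cord, where they set the gain of sensory and motor circuits. A contusion breaks vessels, lets blood into the tissue, and draws in neutrophils and then monocytes over the first days, while microglia and astrocytes around the lesion react. Neutrophils carry antimicrobial proteins in their granules, platelets carry clotting proteins and chemokines, and red cell precursors make hemoglobin and blood group proteins. In bulk cord RNA these sources are added together, and more cells of a type cannot be told apart from more RNA per cell.

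Counts on genes ranged from 9852873 to 13060462 per rat in group A and from 10606401 to 11664116 in group C, and 1 count was worth 0.0784 to 0.104 CPM (counts relative to the TMM-scaled library size) in these 7 libraries. The table lists genes by Ensembl identifier. Only 99 identifiers could be paired with a symbol, through a list that the study itself picked on these rats, and 98 of them were tested. No defining marker of spinal neurons, astrocytes, oligodendrocytes, microglia or meninges was among them, so the labelled tissue could not be checked against its markers. Of 40 gene lists written for this tissue, 8 had any paired member, and their members are not independent evidence of a direction, because the study chose them on contrasts that include group C.

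The combined treatment changed many genes, and mostly upward. edgeR's quasi-likelihood test, in a single fit to the 17 rats, called 1103 genes in C against A, at a false discovery rate (FDR) under 0.05 with an absolute log2 fold change (FC) above 1. They made up 7.13% of the genes tested. All adjusted p-values below come from this edgeR test, with Benjamini-Hochberg adjustment over all genes. Of these, 1036 (6.7%) were higher and 67 (0.433%) lower in the injured, stimulated rats. The rises reached further than the falls. Among genes called higher the median log2(FC) was 1.82 and 8 genes exceeded 5, whereas among genes called lower the median was -1.26 and the most negative value was -2.59. Between log2(FC) 1 and 2 there were 601 risen genes, between 2 and 3 there were 300, between 3 and 4 there were 91, and between 4 and 5 there were 36. Of the falls, 47 lay between -1 and -1.5 and only 6 went below -2. The median over all genes tested was -0.02.

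Without the fold limit the picture was less one-sided. At the FDR alone, 3380 genes (21.9% of those tested) passed, 2286 higher (14.8%) and 1094 lower (7.08%). The lower ones were small changes of well-expressed genes, with a median log2(FC) of -0.45 and a median level of 50.3 CPM over the 7 rats, against 0.88 and 19.9 CPM for the higher ones. Of the 2277 genes that passed the FDR with a fold change inside the limit, 1027 were lower. A further 270 genes exceeded the limit but missed the FDR.

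The split by level shows the same asymmetry. Among the 4074 genes with a mean of 1 to 10 CPM, 13.1% were called higher and 1.23% lower. Among the 2161 genes at 100 CPM or more, 2.36% were called higher and 0.0925% lower, yet at the FDR alone 14.1% of them were higher and 14.7% lower. Abundant transcripts thus moved in both directions by less than the fold limit, and large rises were mostly those of scarce transcripts, whose median level was 7.45 CPM.

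**Figure D1:**
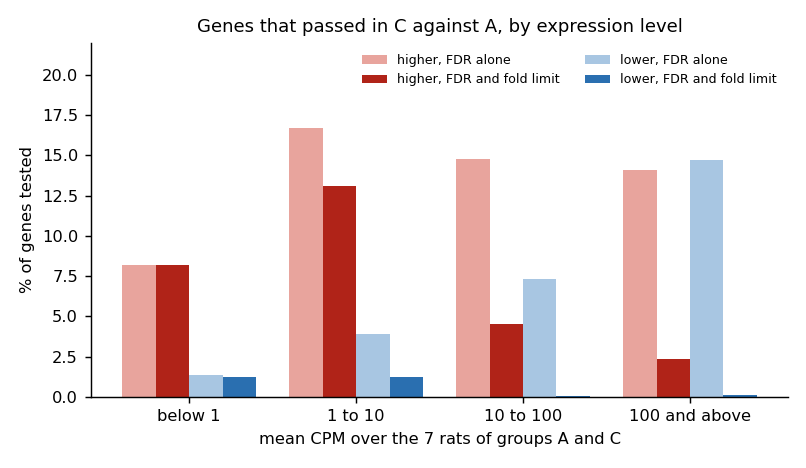
Share of tested genes that passed in group C against group A, in 4 classes of mean CPM over the 7 rats, with higher genes in red and lower genes in blue; pale bars use the FDR alone and dark bars add the fold limit. Among genes at 100 CPM or more the pale bars reach 14.1% (higher) and 14.7% (lower), while the dark bar for falls is at 0.0925%.

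The genes called higher took up a larger part of the RNA in injured rats. In group A they held 1.58 to 1.71% of the counts, and in rats 89, 90 and 93 of group C 7.24, 4.85 and 3.64%. In rats with injury alone they held 3.81 to 5.3%, and in sham-injured stimulated rats 1.55 to 1.85%. The higher share in group C than in group A follows from the choice of these genes on the same rats. The rats of group B, which are not in this contrast, lay within the range of group C.

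Individual rats of group C responded to different degrees. Over the genes called higher, the median log2 ratio to the mean of group A was 2.28 in rat 89, 1.6 in rat 90 and 1.1 in rat 93. Over the genes called lower it was -1.53, -1.3 and -1.08 in the same rats. The order was thus the same in both directions. Rat 89 had the highest value of the 3 in 90% of the genes called higher and rat 93 the lowest in 86.1%, against 38.1% and 36.0% over all genes tested. In group B the corresponding medians were 1.72, 1.16 and 1.47, so a rat with injury alone (rat 91) lay above 2 of the 3 stimulated rats. The median SD of log2 CPM over the genes called higher was 0.647 in group C, 0.345 in group B and 0.308 in group A, against 0.223, 0.141 and 0.15 over all genes tested. The number of calls moved with the rats of group C. Without rat 89 the fit called 664 genes, and without rat 93 it called 1415.

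**Figure D2:**
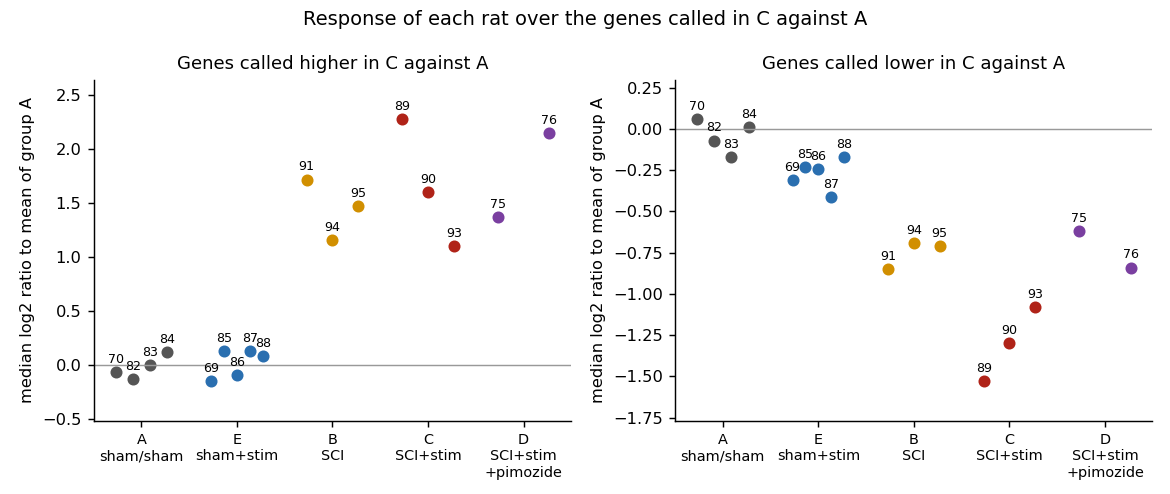
Median log2 ratio of each numbered rat to the mean of group A, over the 1036 genes called higher (left) and the 67 called lower (right) in group C against group A; each point is 1 rat. Groups A and E lie near 0 in the left panel, the 3 rats of group C spread from 1.1 to 2.28, and groups B and D lie within or near that range.

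The largest rises can be given only by identifier. ENSRNOG00000030187 had 0 counts in all 4 rats of group A and 11.1, 5.25 and 1.13 CPM in rats 89, 90 and 93. Against a floor of 3 counts summed over group A, the mean of group C was at least 83.7-fold higher, and without rat 89 at least 45.7-fold. ENSRNOG00000008816 stood at 14.1 to 16.0 CPM in group A and at 1438.7, 693.3 and 259.8 CPM in group C (log2(FC) 5.74, SE 0.5, adjusted p = 2e-06 by edgeR). Without rat 89 its log2(FC) was 5.00. Both genes followed the order of the rats described above. Both were also at high levels after injury alone, with 349.0 to 708.0 CPM for ENSRNOG00000008816 in group B and 14.4 to 21.9 CPM in group E.

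Among genes called lower the most negative log2(FC) was that of Slc17a7, given with the named genes. Of the called falls without a symbol, ENSRNOG00000008020 went from 2.29, 2.43, 1.9 and 2.96 CPM in group A to 0.348, 0.368 and 0.781 CPM in group C (log2(FC) -2.23, SE 0.41, adjusted p = 0.001 by edgeR). ENSRNOG00000061881 went from 1.56 to 2.2 CPM in group A to 0.0869, 0.184 and 0.955 CPM in group C (log2(FC) -2.1, SE 0.48). Single rats of group C moved the latter value to -1.62 (without rat 89) and -3.63 (without rat 93), and both genes were called in every fit that left out 1 rat. The groups did not overlap for either gene. In group B they stood at 0.482 to 1.15 CPM and at 0.734 to 1.35 CPM, below every rat of group A and overlapping group C.

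Over all tested genes the rats of groups A and C did not overlap for 4462 (28.9%), 16.4% with group C higher and 12.5% with it lower. Of the genes called higher 946, and of those called lower 59, were separated in this way.

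The question of what stimulation adds to injury was addressed by the same fit. Injury alone (B against A) gave 820 called genes (5.3%), 787 higher (5.09%) and 33 lower (0.213%). Stimulation alone (E against A) gave 0, with 1297 genes (8.39%) at an unadjusted p under 0.05. Over the genes called higher in C against A, the median log2(FC) was 1.55 in B against A and 0.05 in E against A; over those called lower it was -0.73 and -0.23. These contrasts share the rats of group A, and the values are only set side by side. The direct test of the difference, C against B, called 0 genes by edgeR's quasi-likelihood test, with 476 (3.08%) at an unadjusted p under 0.05. The departure of the combined effect from the sum of both single effects on the log scale, the interaction, also called 0, with 635 (4.11%) at an unadjusted p under 0.05. DESeq2 on all 17 rats called 0 in C against B, 0 in the interaction and 15 in E against A.

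With only groups B and C in the fit, edgeR's exact test over all genes with a count called 35 genes in C against B and DESeq2 called 24. The larger number of calls in the combined contrast was therefore not itself a difference between groups C and B that passed in the model of all rats.

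Rats outside the comparison gave an independent view of the called genes. Groups B and E share no rat with groups A and C, nor do D and E. Of the 1036 genes called higher in C against A, 748 (72.2%) were called higher in B against E, where 5.6% of all genes were, and 871 (84.1%) in D against E, where 7.28% were. No gene of the 1036 was called lower in either. The sign of the log2(FC) was positive for 99.1% of them in B against E and for 48.3% of all genes.

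A smaller share of the falls passed there. Of the 67 genes called lower, 8 (11.9%) were called lower in B against E and 8 (11.9%) in D against E, against 0.809% and 0.492% of all genes, and 1 was called higher in D against E. The log2(FC) was negative for 62 of the 67 (92.5%) in B against E and for 58 (86.6%) in D against E, against 51.7% and 53.7% of all genes. These 2 comparisons were added after the data had been seen. Each contrasts injured with uninjured rats, whether or not the injured rats were stimulated. B against E differs in stimulation as well as injury, and D against E adds pimozide.

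Among the 98 tested genes with a symbol, 10 (10.2% against 6.7% of all genes) were called higher and 3 (3.06% against 0.433%) lower in C against A. The higher genes were Fcnb, Defa5, Klf1, Rhd, Ppbp, Gp1ba, Mx1, Timd2, Abca13 and Robo-1. The lower ones were Slc17a7, Dnah17 and the miscellaneous RNA AABR07060522.2. Masp1, Uba7 and Hnrnpa2b1 rose at the FDR alone. The median log2(FC) of the 98 was 0.24, and -0.02 over all genes tested.

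Among neutrophil granule genes Fcnb and Defa5 were called higher in C against A. Of 22 listed genes 12 were paired and tested, 2 were called higher (16.7%, against 6.7% of all genes) and 0 lower, and 11 had a positive log2(FC), with a median of 1.77. The list is called granule genes for short. It also holds S100a8 and S100a9, whose proteins are cytosolic, and Epx, the eosinophil peroxidase. Fcnb encodes a ficolin, a lectin of the complement system made by myeloid cells. Its levels in group A were 0.208, 1.25, 1.61 and 2.66 CPM, and in group C 14.2, 8.19 and 5.9 CPM. The groups did not overlap, with a log2(FC) at 2.7 (SE 0.47, adjusted p = 0.00066 by edgeR). In group B it stood at 2.12 to 3.47 CPM.

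Defa5, a defensin that kills microbes, stood at 0.521, 1.02, 2.56 and 7.6 CPM in group A and at 12.7, 11.9 and 6.43 CPM in group C (log2(FC) 1.83, SE 0.62, adjusted p = 0.044 by edgeR). The highest rat of group A overlapped the lowest of group C. In group B it stood at 0.674 to 1.65 CPM. Leaving out any one of the 7 rats but rat 84 or rat 93 ended the call of Defa5, with adjusted p from 0.089 to 0.16 in edgeR's test.

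S100a8 and S100a9 encode the calcium-binding proteins that together form calprotectin, the main cytosolic protein of neutrophils. S100a8 had 1.35, 2.04, 5.03 and 19.1 CPM in group A and 30.3, 35.0 and 22.5 CPM in group C. S100a9 had 1.77, 5.8, 9.78 and 29.7 CPM in group A and 40.1, 52.4 and 32.6 CPM in group C. Every rat of group C lay above every rat of group A for both genes, but rat 84 was close to them. With log2(FC) of 2.1 (SE 0.74) and 1.83 (SE 0.69), the adjusted p from edgeR's test was 0.052 and 0.067, and neither was called. Both passed in edgeR's exact test on the 2 groups alone (adjusted p of 0.023 and 0.036) and with no filter on low counts (0.029 and 0.042), and S100a8 also in the exact test on all rats (0.04) and with total-count scaling (0.048).

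Without rat 84 both passed the same test, with log2(FC) of 3.38 and 2.84 and adjusted p of 0.006 and 0.012, and 10 of the 12 granule genes were called, with a median log2(FC) of 2.68 over the 12. Without rat 93 the number was 6, and without rat 70, 82, 89 or 90 it was 1. Mpo, the myeloperoxidase of primary granules, and Camp, the precursor of a cathelicidin antimicrobial peptide, had log2(FC) of 1.7 (adjusted p = 0.052) and 1.36 (adjusted p = 0.095) by edgeR and were not called. Mpo passed in the exact test on the 2 groups alone (adjusted p = 0.02), with no filter on low counts (0.032), with total-count scaling (0.047) and in DESeq2 on all rats (0.047) or the 2 groups (0.01). With all 7 rats kept, the number of granule genes called thus ran from 1 (robust dispersions, or only the 2 groups in the fit) to 6 (the exact test on the 2 groups, or no filter).

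The summed level of the 12 granule genes was 6.56, 17.7, 39.8 and 101.7 CPM in rats 70, 82, 83 and 84 of group A and 158.4, 173.3 and 101.7 CPM in rats 89, 90 and 93 of group C. Much of it came from S100a8 and S100a9, with 19.1 and 29.7 CPM in rat 84 and 35.0 and 52.4 CPM in rat 90. The rats of group A were thus far apart, and the highest of them was level with the lowest of group C. Rats with injury alone lay between 20.6 and 29.7 CPM, inside the range of group A, and rats with stimulation alone between 8.08 and 88.3 CPM. The median log2(FC) of the 12 genes was -1.09 in B against A, -0.51 in E against A, 2.43 in C against B and 3.11 in the interaction, and edgeR's quasi-likelihood test on all rats called none of the 12 in C against B or the interaction. With only groups B and C in the fit, the exact test called 11 of the 12 higher in C against B, where 0.151% of all genes were, and DESeq2 called 10, where 0.11% were. The quasi-likelihood test on the same 2 groups called 2 of the 11 it tested. The study chose these genes with such a test on the same rats, so these counts are no independent evidence.

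Among red cell genes Klf1 and Rhd were called higher in C against A. All 18 paired members of the erythroid list, of 22, had a positive log2(FC), with a median of 0.78, 2 were called higher (11.1%, against 6.7% of all genes), and the other 16 were not called. Without rat 70 the median was 0.44, and without rat 93 14 of the 18 were positive. Klf1, the transcription factor that switches on adult globin genes, was at 0.833, 0.549, 0.855 and 1.18 CPM in group A and at 1.83, 3.04 and 2.43 CPM in group C (log2(FC) 1.51, SE 0.42, adjusted p = 0.017 by edgeR). Rhd, which carries the Rh blood group antigen, was at 0.313, 1.1, 1.61 and 1.09 CPM in group A and at 2.17, 3.5 and 5.47 CPM in group C (log2(FC) 1.83, SE 0.58, adjusted p = 0.034 by edgeR). For both genes all rats of group C were above group A. Both calls were lost without rat 82 or rat 90, with adjusted p of 0.054 and 0.067 for Klf1 and of 0.067 and 0.062 for Rhd. The call of Rhd was also lost without rat 70, 84 or 93, with adjusted p of 0.085, 0.064 and 0.094.

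The abundant globins, by contrast, overlapped between the groups. Hba-a1, an alpha globin, ranged from 74.6 to 388.9 CPM in group A and from 210.2 to 634.8 CPM in group C (log2(FC) 0.49, SE 0.44, adjusted p = 0.44 by edgeR). The summed level of the 18 genes was 230.7, 1166.0, 1148.2 and 736.0 CPM in rats 70, 82, 83 and 84, and 687.2, 892.1 and 1959.0 CPM in rats 89, 90 and 93. Rat 93, the rat with the smallest response over the called genes, had the most erythroid RNA of these 7 rats, and rat 70 the least. Group B, at 324.1 to 464.9 CPM, lay below 3 of the 4 rats of group A.

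Platelet genes were scarce. Of 14 listed genes 5 were paired, all 5 had a positive log2(FC) with a median of 1.43, and 2 (40% of the 5, against 6.7% of all genes) were called higher. Without rat 83 the number was 4, with a median of 2.51. None was called by DESeq2 on all rats, which gave Gp1ba no adjusted p, with only the 2 groups in the fit, with only rats numbered 82 to 95, or without rat 89 or 90, where 4 to 5 were tested. Ppbp, the precursor of several platelet chemokines, was at 0, 0.235, 0.95 and 0.789 CPM in group A and at 2.26, 3.31 and 1.04 CPM in group C (log2(FC) 2.14, SE 0.69, adjusted p = 0.035 by edgeR). Gp1ba, part of the platelet receptor for von Willebrand factor and named after its values were seen, was at 0 to 0.285 CPM and at 1.04, 1.2 and 0.521 CPM. Neither gene overlapped between the groups, but at some 10 counts per CPM each rests on few counts. Itga2b, the alpha chain of the platelet fibrinogen receptor, was at 3.85 to 9.78 CPM in group A and 7.73 to 10.4 CPM in group C and was not called. Leaving out rat 70, 82, 89 or 90 ended the call of Ppbp, with adjusted p from 0.074 to 0.13.

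**Figure D3:**
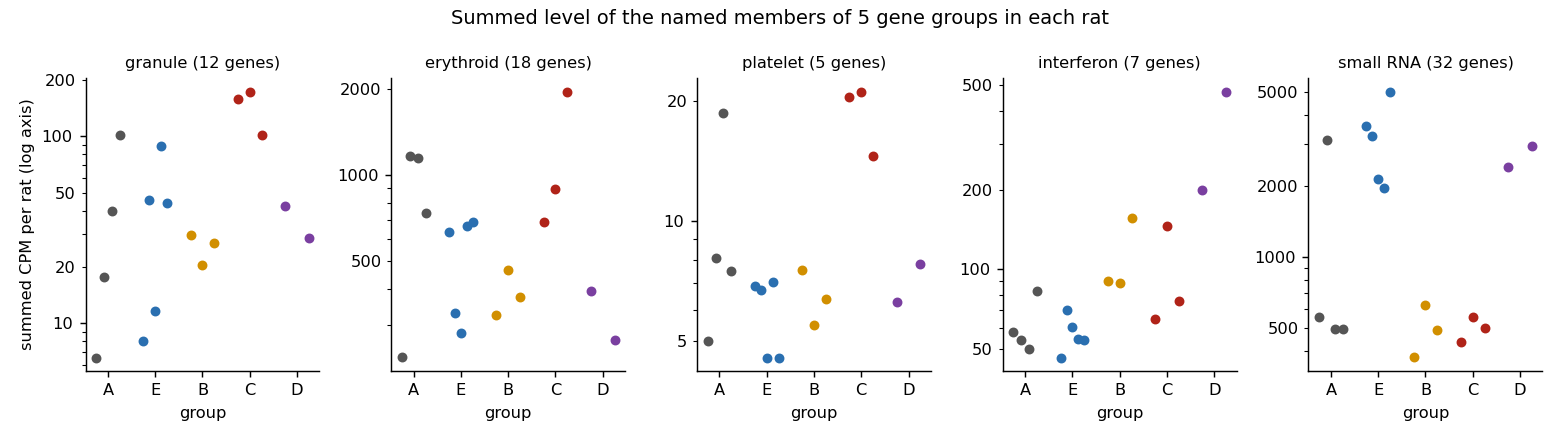
Summed CPM, on log axes, of the named members of 5 gene groups in each of the 17 rats, by group; each point is 1 rat. Granule sums lie between 101.7 and 173.3 CPM in group C and between 6.56 and 101.7 CPM in group A, while small RNA sums lie near 500 CPM in groups B and C and in 3 rats of group A but at 3135.6 CPM in rat 82.

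Of the interferon-induced genes, Mx1 was called higher in C against A and, with an adjusted p of 0.015 by edgeR, in B against A. Of 27 listed genes 7 were paired, 1 was called higher (14.3%, against 6.7% of all genes) and 2 rose at the FDR alone (28.6%, against 14.8%), and the median log2(FC) was 0.74 in C against A, 1.12 in B against A and -0.07 in E against A. Without rat 90 the median in C against A was 0.09, with 4 of the 7 positive, and without rat 70 it was 0.49. Mx1, an antiviral GTPase induced by type I interferon, was at 6.25, 5.8, 6.08 and 12.7 CPM in group A and at 13.2, 49.2 and 15.5 CPM in group C (log2(FC) 1.75, SE 0.52, adjusted p = 0.024 by edgeR). Rat 90 set much of this difference. Without it the log2(FC) was 0.90 and the adjusted p 0.22, and the call was also lost without rat 70, 82 or 83 (adjusted p 0.058 to 0.064). In group B Mx1 was at 19.2, 20.1 and 55.6 CPM. Uba7, the enzyme that activates the ubiquitin-like protein ISG15, went from 7.81, 6.12, 5.89 and 7.99 CPM to 12.4, 14.7 and 11.8 CPM (log2(FC) 0.9, SE 0.21, adjusted p = 0.0058 by edgeR), which passed the FDR within the fold limit. Mx2, the most abundant of the 7, was at 23.6, 24.1, 20.8 and 36.0 CPM in group A and at 16.3, 55.3 and 30.1 CPM in group C. It overlapped between the groups and was not called (log2(FC) 0.37, SE 0.33, adjusted p = 0.44 by edgeR). Ifit2, Oasl and Oas2 also overlapped and were not called, with log2(FC) of 0.16, 0.74 and 0.74.

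Gbp6, a guanylate-binding protein of the same interferon program, had values in the other direction. It was at 1.67, 0.157, 0.285 and 1.68 CPM in group A, at 0.0869, 0.0921 and 0 CPM in group C, and at 0.459, 2.89 and 1.44 CPM in group B. In group C it rested on at most 1 count per rat. Its difference (log2(FC) -3.72, SE 1.42, adjusted p = 0.069 by edgeR) was not called, although all rats of group C lay below group A.

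The 250 bases before the start of Mx1 and Gbp6 are shown because these related genes had values in opposite directions. They are taken from RefSeq on the GRCr8 build, which provided promoter windows for 44 of the 99 named genes, and capitals mark a match to the interferon element GAAANNGAA on either strand. Mx1 lies on the minus strand and its stretch spans chr11:50294607-50294856. Gbp6 lies on the plus strand and its stretch spans chr14:5034749-5034998.
Mx1: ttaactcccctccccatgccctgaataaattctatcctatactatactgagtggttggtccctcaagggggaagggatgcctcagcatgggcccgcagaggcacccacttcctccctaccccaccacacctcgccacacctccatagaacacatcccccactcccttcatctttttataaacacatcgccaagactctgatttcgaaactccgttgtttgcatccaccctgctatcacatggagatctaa
Gbp6: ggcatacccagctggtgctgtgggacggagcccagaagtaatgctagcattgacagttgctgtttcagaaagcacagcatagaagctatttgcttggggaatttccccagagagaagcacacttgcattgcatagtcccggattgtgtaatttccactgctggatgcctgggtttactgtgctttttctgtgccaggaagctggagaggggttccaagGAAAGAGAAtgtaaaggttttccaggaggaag

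The Gbp6 window holds 1 match, 32 bases before the start, and the Mx1 window holds none. Over windows that also include 50 bases after the start, 1 of the 4 interferon genes with a window had a match, against 9.71% of all 33469 windows. A match of letters is a description and not a bound site.

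Mmp13, a collagenase that cleaves fibrillar collagen, separated the groups clearly in rank. It was at 0.833, 3.29, 5.13 and 1.68 CPM in group A and at 9.91, 9.02 and 7.9 CPM in group C. In the other injured rats it was low, at 1.28, 0.0962 and 0.867 CPM in group B and at 0.57 and 1.45 CPM in group D, where stimulation was given with pimozide. The log2(FC) in C against A was 1.69 (SE 0.61, adjusted p = 0.057 by edgeR) and missed the FDR. In C against B it was 3.55 (SE 0.79), with an unadjusted p of 0.00033 and an adjusted p of 1.0 in edgeR's test. Mmp13 passed in C against A without rat 83 (adjusted p = 0.037). With all 7 rats kept, it also passed with only groups A and C in the fit, by the quasi-likelihood test (0.029), the exact test (0.002) and DESeq2 (0.0015), and with no filter on low counts (0.036).

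Masp1, a serine protease that starts the lectin pathway of complement, changed by little but evenly. It was at 16.4, 20.3, 20.4 and 18.7 CPM in group A and at 31.5, 30.6 and 26.8 CPM in group C (log2(FC) 0.64, SE 0.11, adjusted p = 0.00058 by edgeR). The values of group B, 30.8, 29.0 and 25.8 CPM, were nearly those of group C, and group E stayed at 16.2 to 20.8 CPM.

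Timd2, an immune receptor of the T cell immunoglobulin and mucin family that takes up ferritin, had the largest rise among the named genes at 1 CPM or more. It went from 0, 0.0784, 0.38 and 0.493 CPM in group A to 1.74, 2.12 and 3.04 CPM in group C (log2(FC) 3.24, SE 0.66, adjusted p = 0.0023 by edgeR). It was called in every fit that left out 1 of the 7 rats, as was Fcnb. Its level was 0.459 to 0.866 CPM in group B and reached 3.18 CPM in group D. Abca13, a large lipid transporter, rose from 1.04, 0.784, 2.75 and 2.17 CPM in group A to 3.22, 6.08 and 2.52 CPM in group C, with overlap between the groups (log2(FC) 1.23, SE 0.36, adjusted p = 0.024 by edgeR). Robo-1 went from 0.471 to 5.43 CPM in group A to 11.6, 13.8 and 5.12 CPM in group C (log2(FC) 2.14, adjusted p = 0.028 by edgeR). Its call was lost without rat 70, 82, 89 or 90 (adjusted p 0.072 to 0.094), and that of Abca13 without rat 70, 82 or 90 (adjusted p 0.066 to 0.16).

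**Figure D4:**
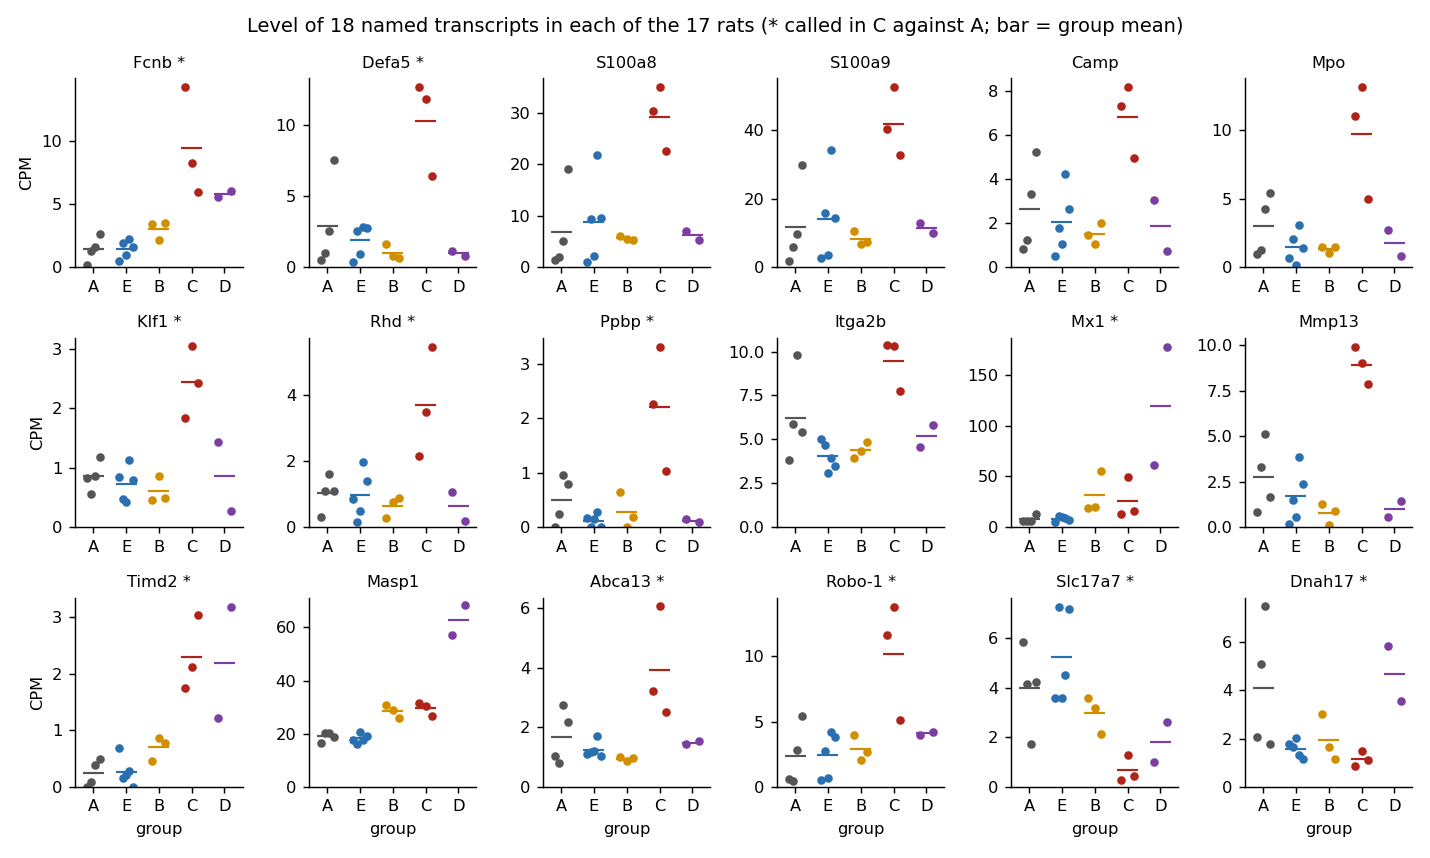
CPM of 18 named transcripts in each of the 17 rats by group, on linear axes from 0; points are rats, bars are group means and asterisks mark genes called in C against A. Granule, red cell and platelet genes stand higher in group C than in group B, whereas Mx1 and Masp1 stand higher in both, and Slc17a7 is lowest in group C at 0.261 to 1.29 CPM.

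Slc17a7, which encodes the vesicular glutamate transporter VGLUT1, fell in C against A. It was at 5.83, 4.16, 1.71 and 4.24 CPM in group A and at 0.261, 1.29 and 0.434 CPM in group C, without overlap (log2(FC) -2.59, SE 0.54, adjusted p = 0.0028 by edgeR). It was called in every fit that left out 1 of the 7 rats, with log2(FC) from -3.48 to -2.2. In group B it was at 3.58, 3.17 and 2.12 CPM, a log2(FC) of -0.42 against A, and in group E at 3.57 to 7.26 CPM. C against B gave a log2(FC) of -2.16, with an adjusted p of 1.0 in edgeR's test.

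Dnah17, a heavy chain of ciliary dynein, fell from 2.08, 5.1, 7.5 and 1.78 CPM to 0.869, 1.47 and 1.13 CPM (log2(FC) -1.84, SE 0.48, adjusted p = 0.012 by edgeR). After injury alone, in group B, it was at 3.03, 1.64 and 1.16 CPM (log2(FC) -1.09 against A, adjusted p = 0.12 by edgeR). It was also low, at 1.14 to 2.03 CPM, in the uninjured stimulated rats, whereas both rats of group D, injured and stimulated under pimozide, stood at 5.84 and 3.54 CPM, inside the range of group A. Its call was lost without rat 89 (adjusted p = 0.07).

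The small RNAs were set apart by 1 control rat. Of the 33 small nucleolar, small nuclear and miscellaneous RNAs with a paired identifier, 32 were tested, 1 (3.12%, against 0.433% of all genes) was called lower in C against A and 30 had a negative log2(FC), with a median of -0.76. Their summed level was 558.3, 492.7 and 492.9 CPM in rats 70, 83 and 84 of group A and 3135.6 CPM in rat 82. In group C it was 434.9, 556.6 and 499.8 CPM. Without rat 82 none was called, the median was -0.02 and 15 of 32 were positive. None was called without rat 89, 90 or 93, with total-count scaling or with robust dispersions either, where the median ran from -0.92 to -0.69. More were called lower under other settings, with 3 by the exact test on all rats, and 2 by DESeq2 on all rats, with no filter on low counts, with only rats numbered 82 to 95, or without rat 70, 83 or 84. The one called in the full comparison, AABR07060522.2, named after its values were seen, was at 88.9, 78.2 and 84.7 CPM in rats 70, 83 and 84, at 1199.0 CPM in rat 82 and at 54.0, 88.5 and 67.3 CPM in group C. All 5 rats of group E (1965.3 to 5003.4 CPM summed) were at the level of rat 82, and so were both rats of group D.

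Rat 82 also bears on the contrasts beside this one. Without it, 1012 genes were called in C against A, 49 in E against A and 3 in the interaction, the last all lower than the sum of the single effects. These 3 were all among the 32 small RNAs, whose summed level was high in rat 82 and in groups D and E.

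AABR07043200.1, whose type differs between the sources and which is counted here among the small nucleolar RNAs, had 0 counts in the 3 rats of group C and 1.15, 1.57, 0 and 1.28 CPM in group A. Against a floor of 3 counts summed over group C, its level there was at least 11.3-fold lower, but it was not called (adjusted p = 0.085 by edgeR, and 0.0019 to 0.045 in the 5 alternatives that called it) and also had 0 counts in 1 rat each of groups A, B, D and E. Hnrnpa2b1, an RNA-binding protein, rose from 125.7, 90, 145.6 and 154.3 CPM to 210.2, 200.7 and 165.8 CPM at the FDR alone (log2(FC) 0.58, adjusted p = 0.01 by edgeR).

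Over all genes tested, the 5 smallest p in C against B were those of Abca13, Mmp13, Defa5, Klf1 and Itga2b, with log2(FC) from 1.12 to 3.55 and unadjusted p from 0.00016 to 0.00071 in edgeR's test. The 5 smallest in the interaction were those of Itga2b (unadjusted p = 0.00012 by edgeR), RGD1564883 (0.00031) and 3 identifiers with no symbol. None passed after adjustment over all genes in this test of all rats. RGD1564883 had a C against B log2(FC) of 7.13. It was at 15.4, 14.6, 0.76 and 11.5 CPM in group A and at 19.9, 13.7 and 10.6 CPM in group C, with overlap but with 1 rat of group A (rat 83) far below the rest (log2(FC) 0.48, adjusted p = 0.73 by edgeR), and at 0.0917 to 0.0963 CPM, 1 count each, in the rats of group B. In group E it was at 6.21 and 8.17 CPM in rats 69 and 87 and below 0.2 CPM in the other 3.

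Set side by side, some named genes had a value in C against A close to that in B against A, some had the opposite sign, and others lay between. Mx1 had a log2(FC) of 1.75 in C against A and 2.04 in B against A, and Masp1 0.64 and 0.59. Defa5 had 1.83 and -1.47, Klf1 1.51 and -0.49, Ppbp 2.14 and -0.77, and Mmp13 1.69 and -1.86. Timd2, at 3.24 and 1.53, and Fcnb, at 2.7 and 1.05, kept their sign with a smaller value in B against A. So did Dnah17, at -1.84 and -1.09, and Slc17a7, at -2.59 and -0.42. The study picked many of these genes for a difference involving group C, so this ordering is a description of the list and no test of it.

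**Figure D5:**
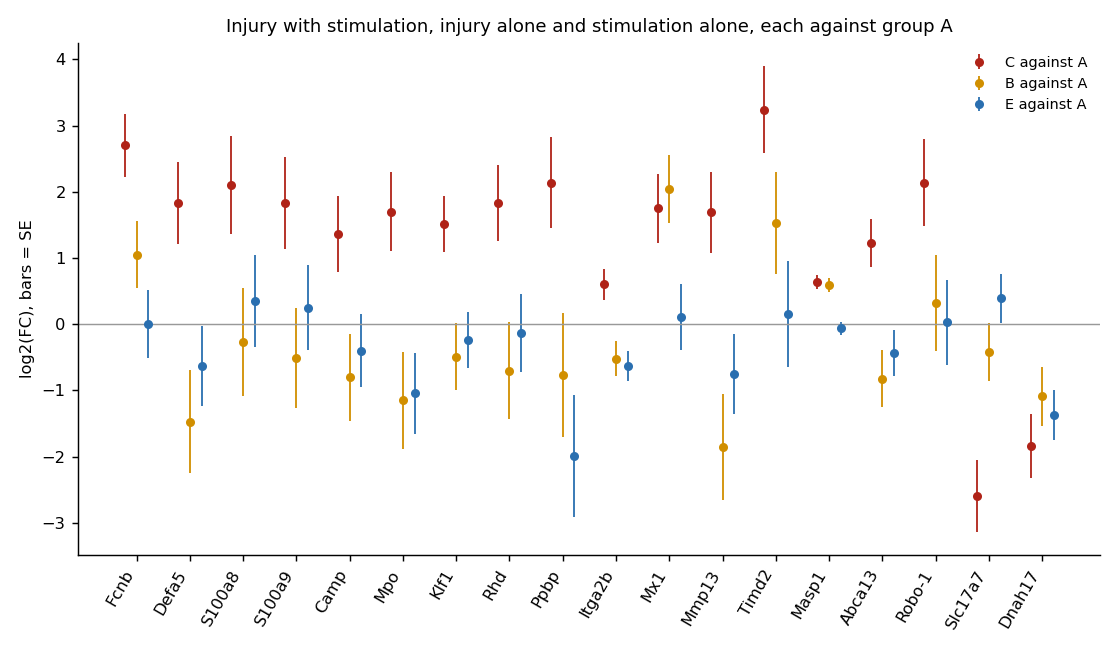
log2(FC) with SE bars of 18 named transcripts in C against A (red), B against A (orange) and E against A (blue), all from 1 model of 17 rats and sharing the rats of group A. Red and orange points lie together for Mx1 (1.75 and 2.04) and Masp1 (0.64 and 0.59) and apart for Defa5 (1.83 and -1.47) and Mmp13 (1.69 and -1.86).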

How the data were processed

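Spinal cord RNA of 17 rats was measured with 1 library per rat. The authors deposited counts, unnormalized whole numbers of single-end reads for each Ensembl gene, after trimming with Trim Galore 0.4.1, aligning with STAR 2.5.0a and counting with its gene counting mode. Versions are from the submitters' processing notes, which name the rn6 build, whereas the paper's methods name an older one, so no measured gene is given a position. The strand column used is not given in the sources used here, and overlapping antisense genes may share reads.

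Counts were analyzed in R 4.3.3 with edgeR 4.0.16 and limma 3.58.1. Genes were kept by filterByExpr over the 5 groups, scaled by TMM (trimmed mean of M values), and fitted with glmQLFit in a single model of all 17 rats. Contrasts were tested with glmQLFTest and Benjamini-Hochberg adjustment over the 15460 genes. The study used the exact test of edgeR on pairs of groups, run here as an alternative, as were DESeq2 1.42.0, total-count and RLE scaling, other filters on low counts, fits of the compared groups alone, robust dispersions, no fold limit, only rats numbered 82 to 95, and each rat left out in turn. Standard errors are the absolute log2(FC) over the root of the F statistic. The test was tested on simulated data. Values were summarized in Python 3.11.15 with pandas 2.3.3 and drawn with matplotlib 3.10.9.

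Genes were named by a rule. It took the called genes with a symbol, at least 1 CPM on average and no overlap that rose or fell most. The most abundant called ones were added, and up to 4 called members of each list (or the most abundant, to make up 2). Of a fixed set (Htr7, Drd2, Htr1a, Htr2a, Fos, Egr1, Gfap, Mbp, Chat and Slc17a7) only Slc17a7 could be paired with an identifier. Those with a symbol among the 5 smallest p of all genes in C against B and in the interaction were included. So were the study's genes of interest. Other named genes, among them Uba7, Hnrnpa2b1 and Hba-a1, are given in addition to this rule. The comparison, the gene lists and this rule were chosen with earlier results of these data known. The labels give no batch. The rat numbers form a lower and a higher series (82 to 95), and of groups A and C only rat 70 is in the lower one. Each rat is 1 replicate. Chi-square per degree of freedom between rats of groups A and C was 4.39 to 40.5, where counting error alone gives 1, so the spread between rats of a group exceeded counting error and no libraries were duplicates. Genes without a symbol were not looked up elsewhere.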

Additional observations from a re-analysis of the deposited data

Results flagged for a closer look

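The values compared were, in group A, the CPM of each named gene, called gene with a symbol and tested member of a gene list, and, in groups A and E, the summed levels, shares of counts and medians per rat. In 12 of these 81 sets, 1 rat lay far from the others, by the gap to its nearest neighbor over the whole range. For separate sets with normal spread, chance would mark about 1 in 20. Many of these sets share genes or hold untransformed CPM, so 12 of 81 cannot be set against that rate. All 12 were in group A. Rat 82 stood apart in the summed CPM of the small nucleolar RNAs (gap over range 0.952), the small nuclear RNAs (0.945), the miscellaneous RNAs (0.974) and all of these together (0.975), in AABR07060522.2 (0.99), and in the share of counts held by the genes called lower (0.929), which was 0.162% in rat 82 and 0.0514 to 0.0592% in the other 3. Rat 84 stood apart in Mx1 (0.935), at 12.7 CPM against 5.8 to 6.25 CPM, and in the granule genes Elane (0.916; 2.27 CPM, against at most 0.19 CPM) and Np4 (0.884; 9.87 CPM, against at most 1.42 CPM) and the red cell gene Car1 (0.88; 3.16 CPM, against at most 0.471 CPM). Rat 83 stood apart in Tubb1, a platelet tubulin (0.897), at 3.99 CPM against 0.592 to 0.941 CPM. Actc1, a muscle actin, had 1 count in rat 82 and 0 in the other rats of group A (1.0), and at most 1 count in any rat of group C.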

How the results depend on the processing

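No paired analysis was possible because the groups share no rat numbers. The counts of called genes were recomputed under each alternative. In C against A they ranged from 950 (only the 2 groups in the fit) to 1161 (no filter on low counts) under the other tests, scalings and filters, and at 1005 with only rats numbered 82 to 95. Without the fold limit they were 3380 in C against A and 1912 in B against A. Leaving out 1 rat gave 664 to 1415 in C against A (without rats 89 and 93), 557 to 889 in B against A, 0 to 49 in E against A and 0 to 3 in the interaction (both highest without rat 82), and 0 throughout in C against B. In C against B, where the quasi-likelihood test on all rats called 0, the 2 groups alone gave 3 by that test, 35 by the exact test and 24 by DESeq2. In E against A the exact test gave 15 on all rats and 24 on the 2 groups alone, and DESeq2 gave 15 and 16. Scaling moved the median log2(FC) of all genes to between -0.017 and 0.024 in C against A. The fits of DESeq2 on 2 groups alone were added after the data had been seen. Actc1 changed sign without rat 70, 83, 84 or 90 (log2(FC) -0.0078, -0.032, -0.02 and -1.64, up to 1.88 without rat 82), and so did Mx2 without rat 90 (-0.17, up to 0.71 without rat 89). Among settings that kept all rats of groups A and C, the calls of Abca13, Defa5, Ppbp and Robo-1 were lost with only the 2 groups in the fit (adjusted p 0.053 to 0.094), that of Ppbp by DESeq2 on all rats (0.065), that of Defa5 with robust dispersions (0.051), those of Defa5, Robo-1 and Abca13 by DESeq2 on the 2 groups (0.16, 0.093 and 0.065), and that of Abca13 by the exact test on the 2 groups (0.075). That of AABR07060522.2 was lost with total-count scaling (0.052), robust dispersions (0.056), the exact test on the 2 groups (0.073) and only the 2 groups in the fit (0.13), and without rat 82, 89, 90 or 93 (0.078 to 0.64). With only rats numbered 82 to 95 Abca13, Defa5, Ppbp, Robo-1 and Rhd were lost (0.054 to 0.077). Of the named genes not called, S100a8, S100a9, Mpo, Gbp6, Mmp13, Camp and AABR07043200.1 passed in 1 or more of these alternatives, Gbp6 by the exact test on all rats (0.016) and by DESeq2 (0.015), Mmp13 by the exact test on the 2 groups (0.002), Camp by DESeq2 on the 2 groups (0.039) and AABR07043200.1 by the exact test on all rats (0.036). Groups of 3 and 4 rats limit every value here, and calls near the threshold depend on single rats.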
